A study of Mus musculus with 19 samples.

Results

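Aminoacyl-tRNA synthetases are the enzymes that join each amino acid to its tRNA, and the 35 genes described here encode 19 proteins that serve the cytosol and 16 that serve mitochondria. They were chosen by name: the cytosolic genes end in 1, a or b (Aars1 to Yars1, with Farsa and Farsb for the subunits of the phenylalanine enzyme) and the mitochondrial genes end in 2 (Aars2 to Yars2). All 35 were found among the 56980 genes of the count table, and all 35 passed the filter on low counts, which left 18739 genes for testing. Lars2, the mitochondrial leucine enzyme, was kept apart from the other 15 mitochondrial genes because its locus can collect reads of ribosomal RNA.

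RNA was sequenced from CD11b+ cells, mainly microglia, that were taken with magnetic beads from perfused brains of single male mice aged 3 to 4 months, after removal of the olfactory bulb and cerebellum. PARK7/DJ-1 KO mice carried a gene trap in Park7 (B6;129P2-Park7 Gt(XE726)Byg/Mmucd, backcrossed to C57BL/6NCrl), which is present in every cell of the animal, and wildtype mice were their littermates. Mice received lipopolysaccharide (LPS, 4 µg/g body weight, intraperitoneally) or phosphate-buffered saline (PBS) for 6 h, giving 4 wildtype PBS, 5 wildtype LPS, 5 KO PBS and 5 KO LPS libraries. The design asks how the cells of each genotype respond to LPS, and whether KO and wildtype cells differ at baseline or after LPS.

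Cells need charged tRNA for each amino acid in each compartment where they make protein; in mitochondria the tRNA for glutamine is first charged with glutamate and then converted. In the cytosol, enzymes for several amino acids are held with scaffold proteins in a multi-synthetase complex, and the others work on their own. Separate nuclear genes encode most of the mitochondrial enzymes, but Kars1 and Gars1 each supply both compartments. When uncharged tRNA accumulates, the kinase GCN2 phosphorylates eIF2, and the transcription factor ATF4 then raises genes of amino acid uptake, amino acid synthesis and tRNA charging; this is the integrated stress response. Wars1, the tryptophan enzyme, is also known as a gene induced by interferon gamma.

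The libraries held 11936364 to 22788884 counts. Park7, the targeted gene, had 262 to 533 counts in each wildtype library and 9 to 90 in each KO library, so the genotype labels held in all 19. Microglial markers summed to 10640 to 39840 CPM (counts scaled to a common library size), and after LPS 9 of 10 were lower in each genotype. Neutrophil and monocyte markers, whose carriers also bear CD11b, summed to 63.0 to 109 CPM in wildtype PBS libraries and to 287 to 546 after LPS, and to 34.3 to 192 and 138 to 495 in KO libraries; 5 of 8 were higher after LPS in wildtype mice and 6 of 8 in KO mice, and none was at 0 in any library. Lymphocyte markers summed to at most 2.29 CPM, and each of the 6 was at 0 in some libraries. Border macrophages also bear CD11b; their markers summed to 348 to 465 CPM with PBS and 199.8 to 408 CPM with LPS, and 2 of 4 were lower in both genotypes, Cd163 (log2FC -1.17 in each) and Lyve1 (-1.52 and -1.29). Of the astrocyte and neuron markers 1 of 5 and 1 of 4 were higher in both genotypes, Gfap (1.71 and 1.66) and Tubb3 (2.56 and 1.66). The others were not called in either genotype. In wildtype mice 3 of 5 astrocyte and 2 of 4 neuron markers had positive values. Negative there were Ntsr2 (-0.56), Slc1a2 (-0.10), Rbfox3 (-0.28) and Syt1 (-0.10). Of the endothelial markers 1 of 3 was lower. Over all genes tested, 18.4% were called higher and 17.4% lower in wildtype mice, and 20.1% and 19% in KO mice. Choroid plexus markers ranged most, from 394 CPM in KO LPS replicate 5 to 22240 CPM in a KO PBS library, with 0 of 5 called in either genotype. The part of these cells in the results below was not tested beyond the covariate fits given at the end, and in bulk RNA a change in the number of cells of a type and a change in RNA per cell cannot be told apart.

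After LPS, nearly all cytosolic synthetases rose, and the mitochondrial ones split into a group that rose and a group that did not. In wildtype mice 18 of 19 cytosolic genes were higher and 0 were lower (adjusted p under 0.05 over all genes and a log2 fold change (log2FC) of at least 0.5, edgeR), against 18.4% of all genes tested called higher and 17.4% called lower. In KO mice 17 of 19 were higher and 0 lower, against 20.1% and 19% of all genes. The median log2FC of the cytosolic genes was 1.17 in wildtype and 1.20 in KO mice, while the median over all genes tested was -0.06 and -0.01. Of the 15 mitochondrial genes without Lars2, 8 were higher and 0 lower in wildtype mice (median log2FC 0.55), while KO mice had 7 higher and 1 lower (median 0.50). Both LPS comparisons of a genotype rest on that genotype's own PBS libraries.

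**Figure D1:**
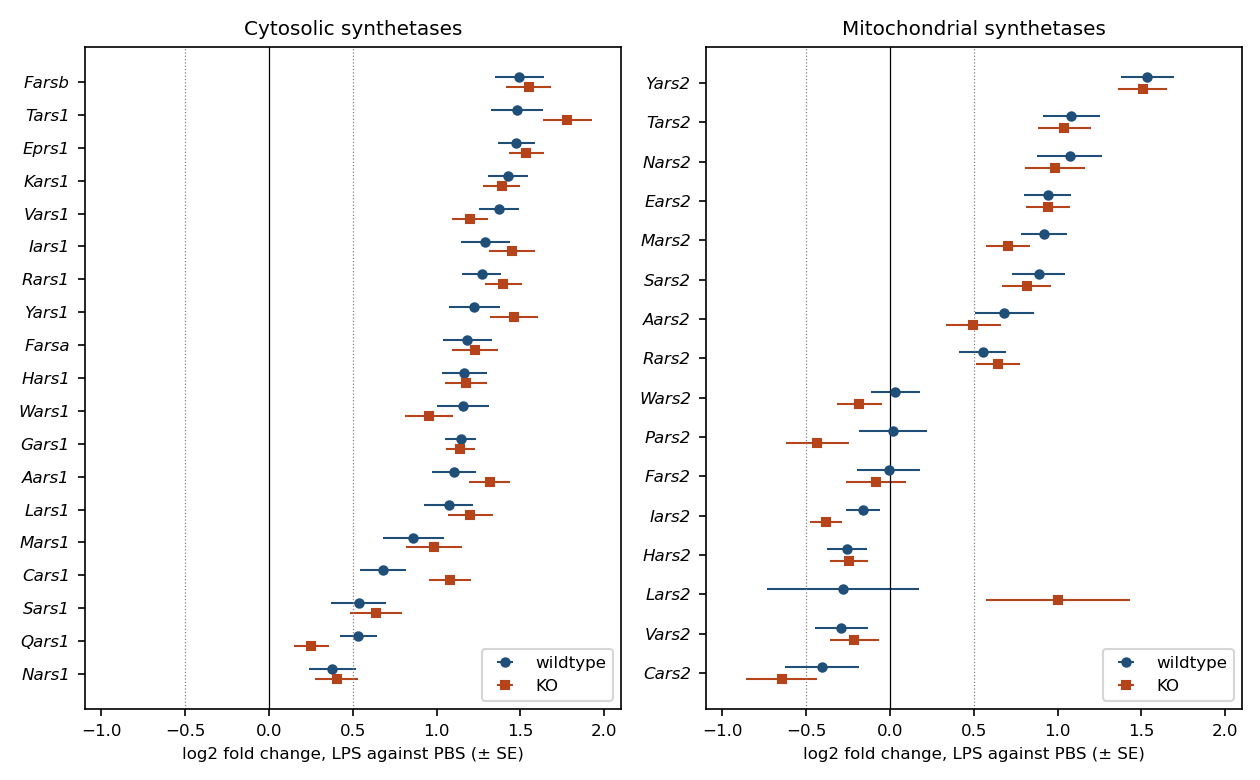
Log2 fold change after LPS against PBS for the 19 cytosolic (left) and 16 mitochondrial (right) synthetases in wildtype (circles) and KO mice (squares); bars are standard errors and dotted lines mark the fold threshold of 0.5. All cytosolic values lie above 0, whereas mitochondrial values run from Yars2 at 1.54 to Cars2 at -0.41 in wildtype mice.

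The cytosolic sum moved from 1224 ± 133 CPM (SD, n = 4) in wildtype PBS to 2613 ± 193 CPM (n = 5) in wildtype LPS libraries, and from 1219 ± 119 to 2724 ± 375 CPM in KO libraries (n = 5 each). The ranges of PBS and LPS libraries did not overlap in either genotype: 1093 to 1382 against 2426 to 2897 CPM in wildtype mice, and 1108 to 1386 against 2373 to 3208 CPM in KO mice. The mitochondrial sum without Lars2 went from 287 ± 6.88 to 372 ± 44.0 CPM in wildtype mice, with no overlap, and from 286 ± 12.9 to 354 ± 58.1 CPM in KO mice, where KO LPS replicate 3 (275 CPM) lay among the PBS libraries. The cytosolic sum was therefore 4.27 ± 0.45 times the mitochondrial sum in wildtype PBS and 7.06 ± 0.62 times in wildtype LPS libraries, and 4.27 ± 0.55 and 7.77 ± 0.76 times in KO PBS and LPS libraries.

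Eprs1 (chr1:185095101-185161840 of GRCm39, 32 exons) encodes a bifunctional enzyme of the multi-synthetase complex that charges tRNAs for glutamate and proline. Its values were 109, 99.5, 114 and 102 CPM in wildtype PBS and 305, 257, 312, 316 and 284 CPM in wildtype LPS libraries. In KO mice they were 120.2, 124, 111, 104 and 106 CPM with PBS and 279, 374, 310.3, 289 and 388 CPM with LPS. Every LPS library was above every PBS library, with log2FC 1.47 ± 0.11 (SE; adjusted p = 8.073e-09, edgeR) in wildtype and 1.54 ± 0.10 (adjusted p = 1.289e-09) in KO mice.

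Tars1, the threonine enzyme (chr15:11382387-11399775), had 35.03, 23.9, 33.3 and 27.0 CPM in wildtype PBS and 81.9, 84.2, 102, 69.7 and 77.9 CPM in wildtype LPS libraries. The KO values were 30.4, 33.4, 27.1, 21.3 and 24.6 CPM with PBS and 84.9, 96.1, 97.9, 77.5 and 113 CPM with LPS. The groups did not overlap, and Tars1 had the highest log2FC of the 35 genes in KO mice (1.78 ± 0.15, against 1.48 ± 0.16 in wildtype mice). Farsb, the beta subunit of the phenylalanine enzyme, had the highest cytosolic value in wildtype mice, 1.49 ± 0.15, from 30.2 ± 2.81 to 85.0 ± 11.9 CPM. Farsa, which encodes the alpha subunit of the same enzyme, had log2FC 1.18 ± 0.15 in wildtype and 1.23 ± 0.13 in KO mice.

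Of the enzymes held in the multi-synthetase complex, 7 of 7 were higher after LPS in wildtype mice and 6 of 7 in KO mice, with medians of 1.27 and 1.39. Kars1, the lysine enzyme, rose from 40.0 ± 4.07 to 107.5 ± 8.44 CPM in wildtype mice (log2FC 1.43 ± 0.12). Iars1 and Rars1, for isoleucine and arginine, had log2FC 1.29 and 1.27 in wildtype and 1.45 and 1.40 in KO mice. Lars1 and Mars1, for leucine and methionine, rose less, by 1.07 and 0.86 in wildtype and 1.20 and 0.98 in KO mice. Qars1, the glutamine enzyme, was the exception. Its wildtype libraries had 69.4, 59.8, 69.2 and 63.7 CPM with PBS and 114, 90.6, 96.2, 88.6 and 83.9 CPM with LPS, without overlap (log2FC 0.53 ± 0.11, adjusted p = 0.0006867). Its KO libraries had 68.1, 79.9, 66.8, 63.9 and 65.1 CPM with PBS and 69.2, 90.7, 74.6, 81.2 and 94.2 CPM with LPS, which overlapped (log2FC 0.25 ± 0.10, adjusted p = 0.05303). The difference between these responses, -0.28 ± 0.15, did not pass the test (adjusted p = 0.9999, edgeR). The wildtype value of Qars1 lies just above the fold threshold, and it fell below it in 5 of 20 alternative fits, among them that without wildtype LPS replicate 1 (0.46).

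The scaffold proteins of the complex rose as well, 3 of 3 in both genotypes. Eef1e1, which also takes part in DNA damage signalling, had log2FC 2.27 ± 0.23 in wildtype and 2.57 ± 0.21 in KO mice, followed by Aimp2 (1.39 and 1.30) and Aimp1 (0.80 and 0.67). Of the cytosolic enzymes outside the complex, 11 of 12 were higher in each genotype, with medians of 1.16 and 1.19. They included Vars1, the valine enzyme (1.37 and 1.20), Yars1, the tyrosine enzyme (1.22 and 1.46), Hars1, the histidine enzyme (1.17 and 1.18), Gars1, the glycine enzyme (1.14 and 1.14), and Aars1, the alanine enzyme (1.10 and 1.32). Cars1 and Sars1, for cysteine and serine, had the smaller values of 0.68 and 0.54 in wildtype and 1.08 and 0.64 in KO mice. The Sars1 call was lost in 5 of 20 alternative fits in wildtype mice, among them that without LPS replicate 3, and in 2 of 21 in KO mice, among them that without LPS replicate 5 (0.49). The 2 structural classes into which synthetases are divided by the fold of their catalytic domain showed similar medians among the cytosolic genes, 1.19 for the 10 of class I and 1.17 for the 9 of class II in wildtype mice, and 1.20 and 1.23 in KO mice. Eprs1, whose bifunctional enzyme serves both glutamate and proline, was counted in class I only.

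Nars1, the asparagine enzyme, was the cytosolic gene that missed the call in both genotypes, and the most highly expressed of the 35 genes per length at baseline (47.8 ± 8.86 CPM per kb of transcript in wildtype PBS libraries, n = 4). Its levels were 159, 104, 141 and 120.0 CPM in wildtype PBS and 171, 168, 197, 157 and 159 CPM in wildtype LPS libraries. The KO libraries had 146, 164, 134, 113 and 118 CPM with PBS and 188, 206, 152, 154 and 193 CPM with LPS. The ranges overlapped in both genotypes; the log2FC of 0.38 ± 0.14 and 0.40 ± 0.13 passed the adjusted p (0.0334 and 0.01494, edgeR) but not the fold threshold.

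Wars1 had 61.0, 53.5, 53.3 and 44.8 CPM in wildtype PBS and 103, 121, 127, 147 and 95.5 CPM in wildtype LPS libraries. In KO mice it had 58.6, 68.6, 57.7, 45.7 and 42.8 CPM with PBS and 116, 126, 90.5, 97.6 and 99.2 CPM with LPS. It rose in both genotypes (log2FC 1.16 ± 0.16 and 0.95 ± 0.14) with no overlap of LPS and PBS libraries. After LPS the KO and wildtype ranges overlapped, and KO against wildtype gave -0.17 ± 0.14 (adjusted p = 1, edgeR). Of 10 interferon response genes, 9 were higher after LPS in wildtype and 8 in KO mice; Cxcl10, Ifit1, Gbp2, Isg15 and Ifit3 had log2FC 6.84, 4.92, 4.88, 4.85 and 3.99 in wildtype and 6.73, 4.55, 4.64, 4.62 and 3.89 in KO mice.

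**Figure D2:**
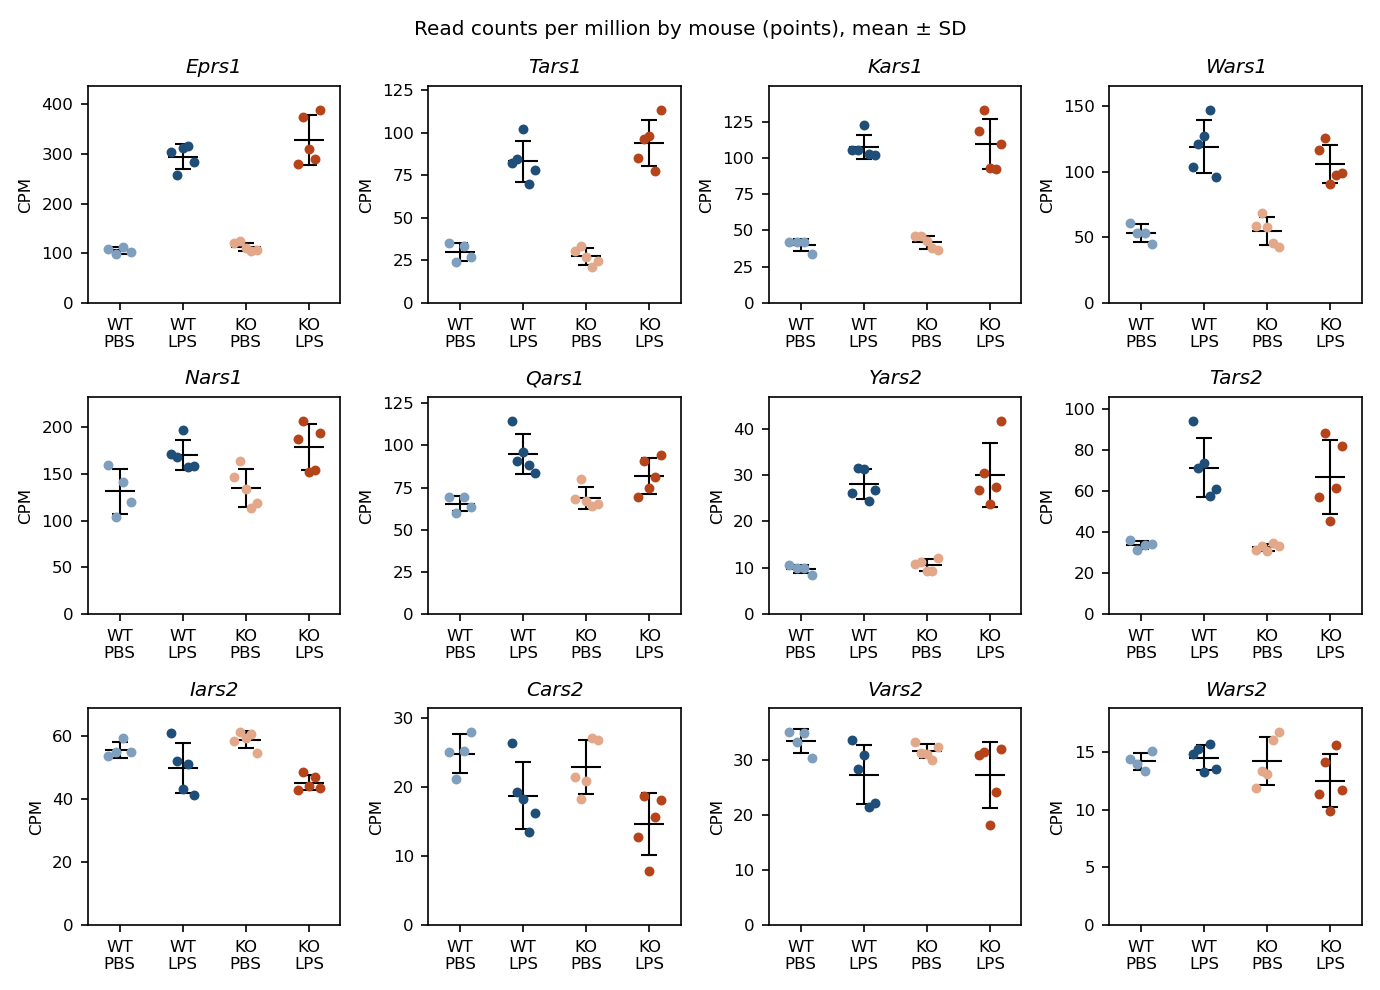
CPM (vertical axes, from 0) of 6 cytosolic (Eprs1 to Qars1) and 6 mitochondrial synthetases (Yars2 to Wars2) in the 4 groups; points are libraries of single mice and bars are mean ± SD. LPS libraries lie wholly above PBS libraries of the same genotype for Eprs1, Tars1, Kars1, Wars1, Yars2 and Tars2, and not for Nars1.

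Among mitochondrial synthetases the largest response was that of Yars2, the tyrosine enzyme (chr16:16120366-16157367). Its wildtype libraries had 10.5, 9.88, 9.92 and 8.38 CPM with PBS and 26.1, 31.6, 31.3, 24.4 and 26.9 CPM with LPS. Its KO libraries had 10.8, 11.3, 9.25, 9.32 and 12.1 CPM with PBS and 26.8, 30.5, 23.8, 27.5 and 41.7 CPM with LPS. The groups were far apart in both genotypes, with log2FC 1.54 ± 0.16 and 1.51 ± 0.15, where the highest cytosolic value in wildtype mice, that of Farsb, was 1.49 ± 0.15. The gene body of Yars2 overlaps that of Dnm1l on the opposite strand over 28691 bp. Other members overlap neighbours on the opposite strand too, among them Cars2 (Naxd, 6544 bp), Farsb (Sgpp2, 4161 bp), Aars1 (Ddx19b, 3993 bp) and Iars2 (Rab3gap2, 3732 bp). Aars1 also overlaps Exosc6 on the same strand over 1326 bp. The paper names a stranded library kit, but the strand setting of the counting was not given in the sources used here. Whether reads were shared was not tested.

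Tars2, the mitochondrial threonine enzyme, rose from 33.9 ± 1.88 to 71.6 ± 14.4 CPM in wildtype mice (log2FC 1.08 ± 0.17) and from 32.6 ± 1.62 to 67.0 ± 17.96 CPM in KO mice (1.04 ± 0.16). Nars2, for asparagine, rose by 1.07 and 0.99, and Ears2, for glutamate, by 0.94 in both genotypes. Mars2 and Sars2, for methionine and serine, rose by 0.92 and 0.89 in wildtype and 0.70 and 0.82 in KO mice. Rars2, for arginine, had the smallest values of the mitochondrial genes called higher, 0.55 ± 0.14 and 0.65 ± 0.13, and its wildtype call was lost in 3 of 20 alternative fits, among them that without wildtype LPS replicate 1 (0.48). Aars2, for alanine, was called in wildtype mice (0.68 ± 0.18) and lay at the threshold in KO mice (0.50 ± 0.16, adjusted p = 0.01808, edgeR), where 9 of 21 alternative fits called it, among them those without KO PBS replicate 3 or 5 (0.50 and 0.55) and without KO LPS replicate 1, 3 or 4 (0.52, 0.62 and 0.54).

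The other 7 mitochondrial genes were not called in wildtype mice. Wars2, Pars2 and Fars2, for tryptophan, proline and phenylalanine, had log2FC of 0.03, 0.02 and -0.01 in wildtype and -0.18, -0.43 and -0.08 in KO mice. Hars2 and Vars2, for histidine and valine, had -0.26 and -0.29 in wildtype and -0.24 and -0.21 in KO mice. Iars2, the isoleucine enzyme (chr1:185016803-185061612), had 53.6, 55.0, 59.3 and 54.9 CPM in wildtype PBS and 61.1, 52.3, 43.2, 51.2 and 41.4 CPM in wildtype LPS libraries, which overlapped. Its KO libraries had 58.4, 61.3, 59.5, 60.8 and 54.6 CPM with PBS and 43.0, 48.7, 44.3, 46.9 and 43.5 CPM with LPS. In KO mice all LPS libraries were below all PBS libraries, but the log2FC of -0.38 ± 0.09 (adjusted p = 0.002613, edgeR) did not reach the fold threshold.

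Cars2, the mitochondrial cysteine enzyme, was the single synthetase called lower. In KO mice it had 21.4, 18.3, 20.9, 27.1 and 26.8 CPM with PBS and 12.8, 18.8, 7.84, 15.7 and 18.2 CPM with LPS, with log2FC -0.65 ± 0.21 (adjusted p = 0.01693, edgeR). The wildtype values were 25.1, 21.2, 25.2 and 28.0 CPM with PBS and 26.5, 19.3, 18.3, 13.5 and 16.2 CPM with LPS, and gave -0.41 ± 0.22 (adjusted p = 0.1576). The ranges overlapped in both genotypes, by the highest LPS library in KO mice. The call depended on single mice: it was lost without KO LPS replicate 3, the lowest library (-0.49), and it appeared in wildtype mice without wildtype LPS replicate 1, the highest LPS library (-0.56). The difference between genotypes, -0.24 ± 0.31, did not pass the test (adjusted p = 0.9999, edgeR).

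Per length, the mitochondrial genes were the less expressed group at baseline, with overlap. In wildtype PBS libraries the cytosolic genes ranged from 7.06 CPM per kb (Cars1) to 47.8 (Nars1), with Mars1 (28.3), Vars1 (26.7) and Aars1 (24.2) next. The mitochondrial genes without Lars2 ranged from 0.98 CPM per kb (Mars2) to 13.4 (Tars2), and Iars2 (9.93), Hars2 (8.30), Fars2 (7.90) and Vars2 (7.51) also lay above the lowest cytosolic gene. These values divide CPM by the length of the canonical transcript, which for Mars2 is a single exon of 11294 bp.

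The enzymes of both compartments were set side by side for the same amino acid as the log2 ratio of their counts within a library. Over 16 pairs, the ratio of cytosolic to mitochondrial counts was higher in all LPS than in all PBS libraries for 10 pairs and lower for 1 in wildtype mice, and higher for 12 and lower for 0 in KO mice; the 10 pairs of wildtype mice were all among the 12. The pairs are not separate: Eprs1 stands in those for glutamate and proline and Fars2 in those for both phenylalanine subunits, and all 4 of these are among the 10. No such share was computed for ratios of other genes; for single genes, 20.8% of all genes tested lay above in this way in wildtype mice and 16.2% in KO mice. The valine ratio (Vars1 over Vars2) moved from 1.75 ± 0.11 to 3.43 ± 0.25 in wildtype and from 1.85 ± 0.14 to 3.29 ± 0.36 in KO mice. For histidine the ratio changed sign, from -0.66 ± 0.08 to 0.76 ± 0.08 in wildtype and from -0.61 ± 0.28 to 0.80 ± 0.27 in KO mice, so Hars2 had more counts than Hars1 with PBS and fewer with LPS. Hars1 and Hars2 are neighbours that are read in opposite directions and overlap by 198 bp at their start.

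In other pairs both enzymes rose and the ratio stayed within the spread. For tyrosine it was 2.50 ± 0.27 with PBS and 2.19 ± 0.12 with LPS in wildtype mice, and 2.32 ± 0.26 and 2.28 ± 0.17 in KO mice. The ratios for methionine and serine also overlapped in both genotypes. For asparagine the ratio was lower after LPS, 3.65 ± 0.21 against 2.98 ± 0.22 in wildtype mice without overlap, and 3.64 ± 0.27 against 3.10 ± 0.34 in KO mice with overlap. No test was run on the ratios, since the genes were chosen with results of these data known.

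**Figure D3:**
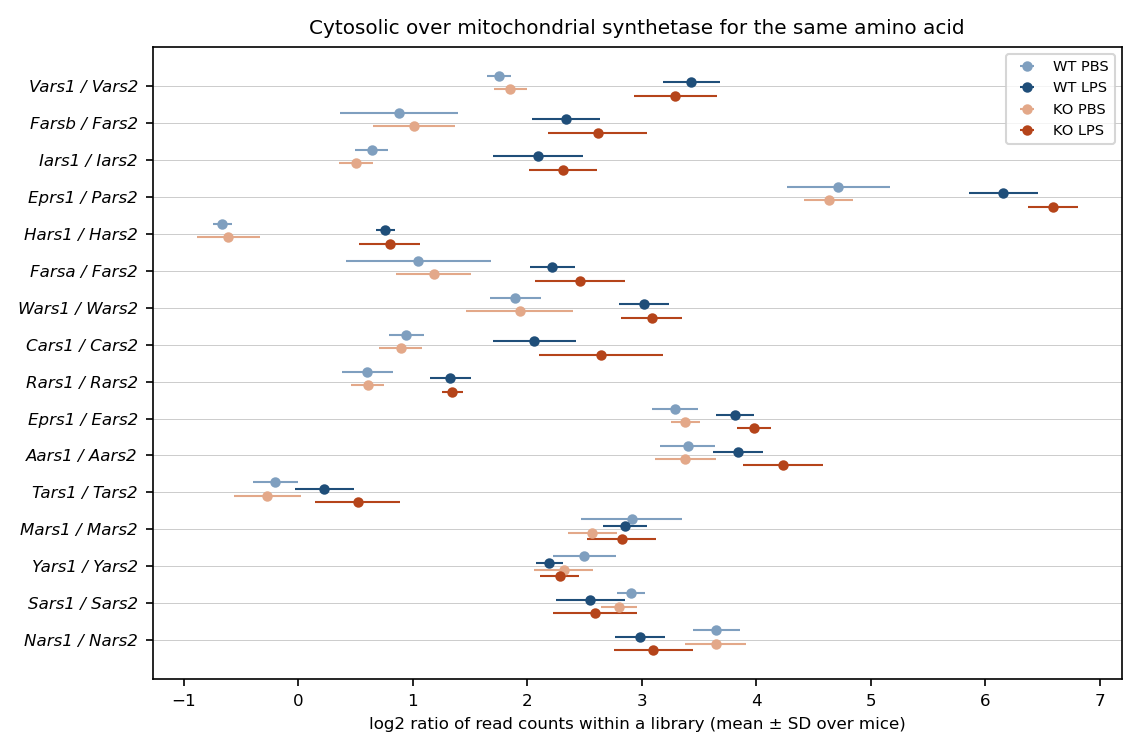
Log2 ratio of cytosolic to mitochondrial read counts within a library (horizontal axis) for 16 pairs of enzymes of the same amino acid, as mean ± SD over mice in the 4 groups. The ratio was higher after LPS for most pairs, such as Vars1 over Vars2, and lower for Nars1 over Nars2.

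Other genes that handle tRNA were counted in the same way. Of 7 elongation factor genes of the cytosol and mitochondria, 6 were higher in each genotype (medians 0.76 and 0.73). Tufm, which brings charged tRNA to the mitochondrial ribosome, had log2FC 0.84 and 0.73. Eef1a1, its counterpart in the cytosol, was the gene not called (0.51, adjusted p = 0.0777, and 0.33, adjusted p = 0.2214, edgeR), and was named after its values were seen. The exchange factor subunits Eef1g (1.53 and 1.39) and Eef1b2 (0.76 and 0.57), the mitochondrial exchange factor Tsfm (0.68 and 0.80) and the mitochondrial translocase Gfm1 (0.88 and 0.77) were called in both genotypes. Of 13 other genes of tRNA charging, 2 were higher and 3 lower in each genotype, shares of 13 near those of all genes tested (18.4% and 17.4% in wildtype, 20.1% and 19% in KO mice). Trnt1, which adds the CCA end to tRNAs, had log2FC 0.88 and 0.80. Gatb and Gatc, subunits of the amidotransferase that makes glutaminyl-tRNA in mitochondria after Ears2 has charged it with glutamate, had -0.55 and -0.76 in wildtype and -0.77 and -0.79 in KO mice. Qrsl1, the third subunit, named after its values were seen, was not called and had positive values (0.40, adjusted p = 0.03602, in wildtype and 0.30, adjusted p = 0.08708, in KO mice, edgeR). Pstk, a kinase of selenocysteine tRNA charging, had -0.82 and -0.87. Of 77 mitochondrial ribosomal proteins tested, LPS raised 28 and lowered 0 in wildtype mice (median log2FC 0.38), and raised 32 and lowered 1 in KO mice (median 0.42).

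Genes of the integrated stress response, a list that includes ATF4 targets, rose with the cytosolic synthetases. Of 26 tested, LPS raised 19 and lowered 1 in wildtype mice (median 1.34), and raised 21 and lowered 1 in KO mice (median 1.54). The shares of all genes tested were 18.4% higher and 17.4% lower in wildtype mice, and 20.1% and 19% in KO mice. Atf4 itself went from 180 ± 12.4 to 458 CPM in wildtype mice (log2FC 1.35 ± 0.16) and had 1.64 ± 0.15 in KO mice. The cystine carrier Slc7a11 had log2FC 4.12 and 4.09, the asparagine synthetase Asns 3.22 and 2.94, the glutathione-degrading enzyme Chac1 3.16 and 4.23, and the mitochondrial folate enzymes Mthfd2 and Shmt2 2.50 and 2.15 in wildtype and 2.94 and 2.31 in KO mice. Trib3, an inhibitor of ATF4, had 1.46 and 2.42. Ddit3 was not called in either genotype (0.29 ± 0.42 and 0.95 ± 0.40, adjusted p = 0.6306 and 0.05744, edgeR), and its gene overlaps Mars1 on the opposite strand. Cebpg, a partner of ATF4, was the gene called lower in wildtype mice (-0.91, and -1.001 in KO mice), and was named after its values were seen.

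The kinases of eIF2 went different ways. Eif2ak2, the interferon-induced kinase PKR that senses double-stranded RNA, rose by 1.49 and 1.41, whereas Eif2ak3, the kinase PERK of the endoplasmic reticulum, had log2FC -0.55 and -0.84. Eif2ak4, which encodes GCN2, was named after its values were seen: it had 0.42 ± 0.13 in wildtype mice, under the fold threshold, and was called in KO mice with 0.53 ± 0.12. Of 16 amino acid transporters, LPS raised 9 and lowered 2 in wildtype mice and raised 10 and lowered 3 in KO mice. Of all genes tested, 18.4% were called higher and 17.4% lower in wildtype mice, and 20.1% and 19% in KO mice. The part of the transporters that was lowered was thus near that of all genes. Slc7a11 and Slc7a5 also stand in the list of stress response genes, so these counts are not separate. Besides Slc7a11, the glutamine carrier Slc1a5 (2.38 and 2.35), the carriers of basic amino acids Slc7a1 (2.18 and 2.67) and Slc7a6 (1.78 and 1.92) and the carrier of large neutral amino acids Slc7a5 (1.70 and 2.00) had the largest values.

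The promoters were searched because ATF4, with C/EBP proteins, binds a short element (CARE) that can be written TGATGNAA on either strand. RefSeq promoters of GRCm38.p6, 250 bases before to 50 after the start, were held for 12 cytosolic and 14 mitochondrial genes. The element was found in 5 of the 12 cytosolic promoters (41.7%, Aars1, Gars1, Iars1, Tars1 and Yars1) and in 0 of the 14 mitochondrial genes. It was found in 8 of 24 genes of the list of integrated stress response genes and ATF4 targets (33.3%), and in 3.97% of all 32851 promoters. That list was put together in part from ATF4 targets, so its share is no separate result. Its 24 genes have 28 promoters and count if any holds the element, whereas the share of all is per promoter. Of the cytosolic promoters with the element, the stretches of Gars1, Iars1, Tars1 and Yars1 are shown as examples, and those of Asns, Chac1 and Trib3 because they are ATF4 targets whose values are given above; each shows 30 bases in the direction of the gene, with the element in capitals.
Gars1, chr6:55014945-55014974, plus strand: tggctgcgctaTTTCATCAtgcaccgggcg
Iars1, chr13:49835602-49835631, plus strand: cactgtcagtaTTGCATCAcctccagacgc
Tars1, chr15:11399741-11399770, minus strand: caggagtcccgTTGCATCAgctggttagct
Yars1, chr4:129083688-129083717, plus strand: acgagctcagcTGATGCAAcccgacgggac
Asns, chr6:7693214-7693243, minus strand: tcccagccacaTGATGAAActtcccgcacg
Chac1, chr2:119181519-119181548, plus strand: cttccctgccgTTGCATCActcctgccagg
Trib3, chr2:152185948-152185977, minus strand: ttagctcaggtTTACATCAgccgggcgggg

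Positions are of GRCm39, where each stretch matched exactly once on its own chromosome in the direction of the gene. Other chromosomes were not searched. Among the stretches shown, the element read in reverse, as TTGCATCA, appears in Iars1, Tars1 and Chac1, and in the forward direction, as TGATGCAA, in Yars1. The first base of the element lay 30 bases before the RefSeq start in Gars1 and 15 before it in Tars1, and at base 8 after it in Iars1 and base 4 in Yars1. The 5 cytosolic genes with the element had a median log2FC after LPS of 1.22 in wildtype and 1.45 in KO mice, the 7 without it 1.18 and 1.23, and the 7 without a promoter entry (Cars1, Hars1, Lars1, Nars1, Rars1, Vars1 and Wars1) 1.16 and 1.18. Farsb and Eprs1, with the highest and third-highest cytosolic log2FC in wildtype mice, were among those without it. Such matches describe the letters in these windows and show no binding.

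Between genotypes the synthetases differed little. At baseline 0 of 35 were called KO against wildtype (unadjusted p under 0.05 and a log2FC of at least 0.5 in either direction, edgeR), where 0.800% of all genes tested were called. After LPS 1 of 35 was called, Lars2, against 1.31% of all genes. Apart from Lars2, the log2FC of KO against wildtype after LPS ran from -0.21 (Qars1) to 0.22 (Cars1) for the cytosolic and from -0.36 (Cars2) to 0.10 (Rars2) for the mitochondrial genes, and no unadjusted p was under 0.05. Of the 19 cytosolic genes 16 had a positive value, and of the 15 mitochondrial genes 3 did; these values share the wildtype LPS and KO LPS libraries and are not independent. A different LPS response in KO and wildtype mice was found for 0 of 35 genes at an adjusted p under 0.05 by edgeR and 0 by DESeq2, where edgeR called 0 of all genes tested. At an unadjusted p under 0.05 edgeR had 1 of the 35 genes (Cars1), against 0.961% of all genes. DESeq2 had 2 (Cars1 and Lars2), and no share of all genes was computed for DESeq2. The Cars1 response was larger in KO mice by 0.40 ± 0.18 (adjusted p = 0.9999, edgeR).

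**Figure D4:**
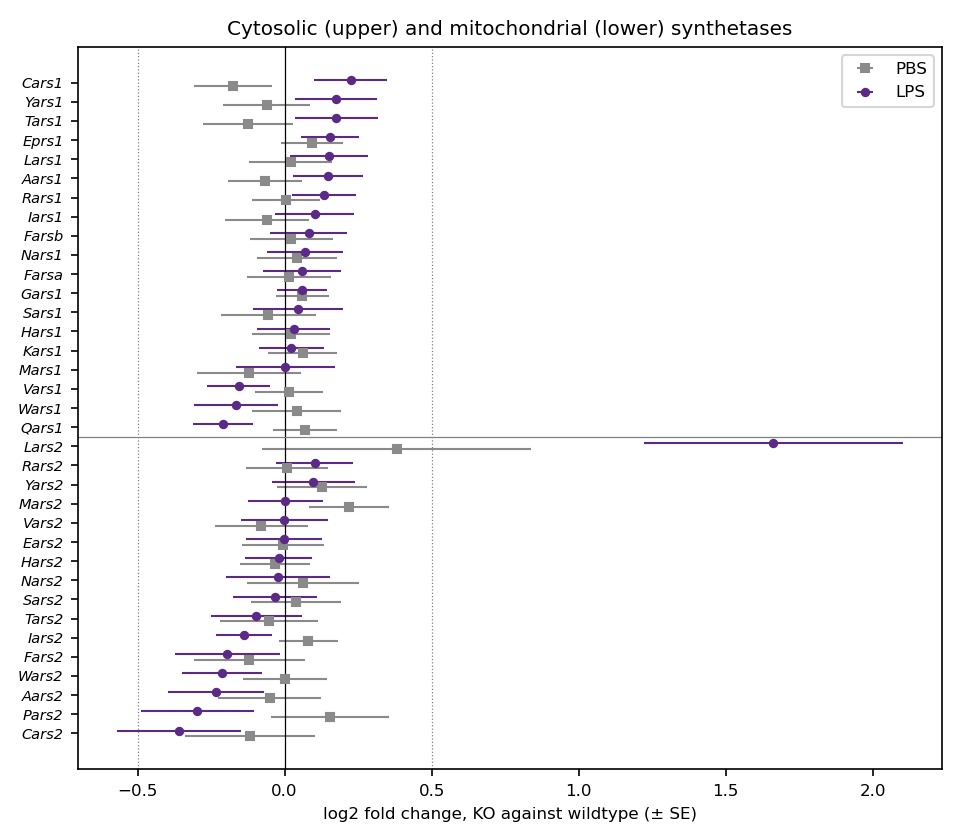
Log2 fold change of KO against wildtype mice with PBS (squares) and with LPS (circles) for the cytosolic (upper) and mitochondrial (lower) synthetases; bars are standard errors and dotted lines mark 0.5 in either direction. All values except that of Lars2 after LPS (1.66) lie between the dotted lines.

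Lars2 (chr9:123195952-123291731, 21 exons in its canonical transcript) behaved unlike the other synthetases. Its counts were 1076, 1106, 1084 and 477 in wildtype PBS and 772, 631, 502, 1034 and 536 in wildtype LPS libraries. The KO libraries had 792, 2023, 2195, 877 and 1200 counts with PBS and 6327, 1728, 1624, 2536 and 503 with LPS. KO LPS replicate 1 had the highest CPM of all libraries (356) and KO LPS replicate 5 the lowest of its group (36.3), so that the group mean of 146 ± 123 CPM had an SD close to the mean. The log2FC after LPS was -0.28 ± 0.46 in wildtype (adjusted p = 0.6687) and 1.00 ± 0.43 in KO mice (adjusted p = 0.06575, edgeR). KO against wildtype after LPS gave 1.66 ± 0.44, which passed the unadjusted threshold only (adjusted p = 1, edgeR). Without KO LPS replicate 1 these KO values became 0.38 (adjusted p = 0.3924) and 1.03 (adjusted p = 0.9999), of which the latter still passed the unadjusted threshold.

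Counts at Rn18s-rs5, a locus of 18S ribosomal RNA, differed among the same libraries and were highest in the same one. They were 22172, 5923, 22662 and 3390 in wildtype PBS, 5889, 8098, 4828, 6325 and 5150 in wildtype LPS, 15974, 32932, 65472, 17759 and 22589 in KO PBS, and 161123, 28450, 35755, 56782 and 7614 in KO LPS libraries. In KO LPS replicate 1 they made up 0.906% of all counts. The mitochondrial ribosomal RNAs mt-Rnr1 and mt-Rnr2 were also highest in that library, at 599 and 626 CPM. The next libraries had 206 and 140 CPM. Gm55352, another annotated ribosomal RNA gene, was lowest there (1.63 CPM). The same library had the highest summed markers of oligodendrocytes (11230 CPM), astrocytes (4237 CPM) and neurons (93.8 CPM). With a score of these and of endothelial markers as a covariate, the log2FC of Lars2 was 0.76 after LPS in KO mice (adjusted p = 0.1043) and 1.42 for KO against wildtype after LPS (adjusted p = 1, edgeR). After LPS the CPM of Rn18s-rs5 did not overlap between genotypes, at 291 to 533 in wildtype and 549.6 to 9062 in KO libraries, so the genotypes' means were taken out before log2 CPM of Lars2 and of this locus were related, and libraries were permuted within genotypes only, a choice made after the values were seen. Over the 9 PBS libraries Pearson's r was 0.76 (exact permutation p = 0.01007, adjusted p = 0.01007) and Spearman's rho 0.73 (exact permutation p = 0.01528, adjusted p = 0.03056; 2 relations, two-sided). Over the 10 LPS libraries r was 0.95 (exact permutation p = 0.007847, adjusted p = 0.01007) and rho 0.77 (exact permutation p = 0.03597, adjusted p = 0.03597). Without the 2 libraries farthest from the median of the locus r was 0.61 for PBS and, without KO LPS replicates 1 and 5, 0.57 for LPS, so the value after LPS rests largely on those libraries. Among the 5 wildtype LPS libraries the highest Lars2 level (67.2 CPM) was not in the library with the most 18S counts, which had 41.5 CPM. The 20 annotated Lars2 transcripts had 0 matches (BLAST, E under 0.001) to the 4 annotated ribosomal RNA genes, which did not include 28S.

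**Figure D5:**
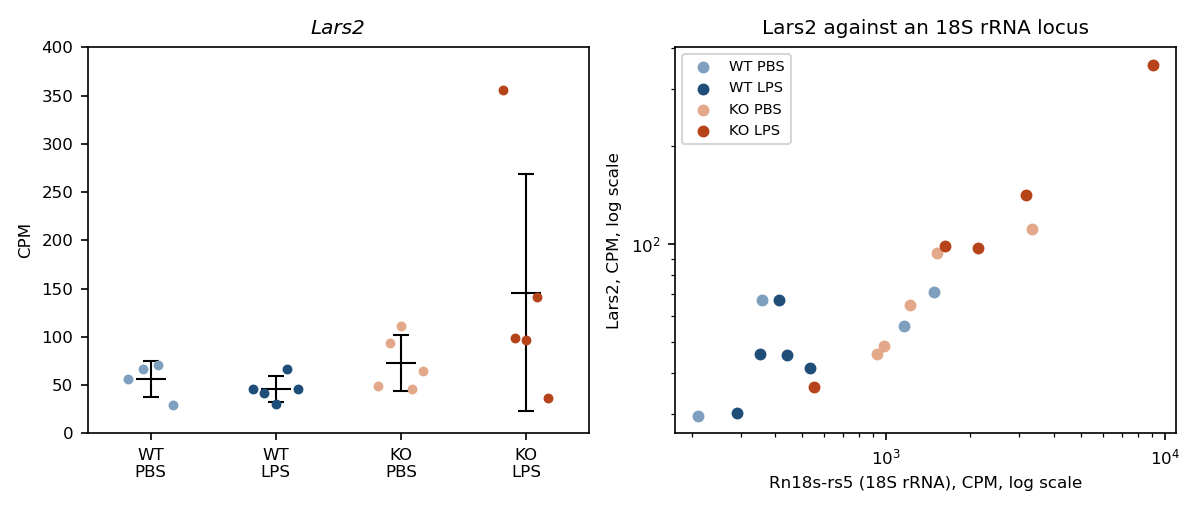
Left, Lars2 CPM by group (points, libraries of single mice; bars, mean ± SD). Right, Lars2 against Rn18s-rs5, both in CPM on log axes, with groups in colour. The KO LPS library with 356 CPM of Lars2 is also the one with the most 18S counts, and KO LPS replicate 5, with 36.3 CPM, has the fewest of its group.

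With a score of oligodendrocyte, astrocyte, neuron and endothelial markers as a covariate the numbers of called synthetases stayed at 18 cytosolic and 8 mitochondrial genes in wildtype and 17 and 7 in KO mice. With a score of choroid plexus markers, a covariate added after the counts were seen, they were 18 and 8, and 16 and 7, where Sars1 fell below the fold threshold in KO mice. No such fit was made with neutrophil and monocyte markers, which rose with LPS themselves; their part in the LPS responses was not tested.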

How the data were processed

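Total RNA libraries, made with a stranded kit and depleted of ribosomal RNA, were read as paired ends of 75 bp. Per the submitters' processing notes, the authors trimmed with cutadapt 0.17.4 and aligned with STAR 2.7.9a to GRCm39 (Ensembl 108); the deposited table holds raw counts per gene, 1 column a mouse, and the strand setting of the counting is not given in the sources used here. Genes were named and located by GENCODE M39 (GRCm39). With edgeR 4.0.16, genes with too few counts were dropped (filterByExpr, minimum count 10), libraries were scaled by TMM, and a quasi-likelihood model with 4 group means was fitted to all 19 libraries, with p-values adjusted by Benjamini-Hochberg over all 18739 genes. CPM use the TMM-scaled library sizes; levels between genes are per kb. After LPS a gene was called at an adjusted p under 0.05 and a log2FC of at least 0.5; KO against wildtype used the unadjusted p, after the study's methods. The fit was also run on simulated counts, and the outcome is not given here. Named were all 35 members, Park7, 5 stress response genes (Atf4, Ddit3, Trib3, Asns and Chac1), and from each other list at most the 5 largest wildtype responses called in both genotypes; a few items are not reported here. Members and lists were chosen with earlier results of these data known. Alternatives were DESeq2 1.42.0, other scalings, filters, covariates and samples. Each total of at least 11936364 counts puts 3 counts at 0.256 CPM or less, and replicates differed by more than sampling noise (chi-square per degree of freedom at least 6.50). Libraries are single mice; which of them share a litter or preparation day is not given in the sources used here.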

Additional observations from a re-analysis of the deposited data

Results flagged for a closer look

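In 4 of 140 gene and group combinations a library stood apart from the others of its group by Dixon's criterion, which chance meets in about 1 of 20. Kars1 was lowest in wildtype PBS replicate 4, at 33.9 CPM against 42.0 in the nearest library. It was highest in wildtype LPS replicate 3, at 122 CPM (122.4) against 105.5. Cars1 was highest in KO PBS replicate 5, at 47.8 CPM (47.81) against 41.6. Qars1 was highest in KO PBS replicate 2, at 79.9 CPM (79.87) against 68.1. Leaving out these libraries changed no call of Kars1 or Cars1, nor that of Qars1 in KO mice.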

How the results depend on the processing

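Of 68 log2FC after LPS (34 genes in 2 genotypes), 60 kept their side of the thresholds under all alternatives that kept both thresholds, 8 did not in at least 1, and 0 of those past the thresholds changed direction. The 8 were Qars1, Sars1, Rars2 and Cars2 in wildtype and Sars1, Aars2, Pars2 and Cars2 in KO mice; for all of them the cause was not tested. Without the fold threshold Nars1 was called in both genotypes, and Aars2 (higher) and Iars2 (lower) in KO mice. The number of cytosolic genes called higher ranged from 16 to 19 in wildtype and 16 to 18 in KO mice, and of mitochondrial genes from 7 to 8 in both. Mitochondrial genes called lower were 2 in KO mice with no minimum fold change (the threshold left out) and 2 with upper-quartile scaling, which moved the median of all genes to -0.16 in wildtype and -0.11 in KO mice; leaving out each mouse gave 0 to 2, with 2 without KO LPS replicate 2 and 0 without KO LPS replicate 3, and 0 to 1 in wildtype mice, with 1 without LPS replicate 1. KO against wildtype after LPS called 0 genes with the adjusted p. It also called 0 with Lars2, ribosomal RNA and mitochondrially encoded genes left out. That fit drops Lars2, the only synthetase called, so its count cannot show how the call depends on ribosomal RNA reads. Lars2 after LPS in KO mice passed with DESeq2 (1.02, adjusted p = 0.04324) and with the choroid plexus score (1.11, adjusted p = 0.0385), and ranged from 0.38 to 1.25 when each mouse was left out, passing without KO PBS replicate 3 (1.22) and without KO LPS replicate 5 (1.25). Same-numbered replicates did not deviate together throughout (r from -0.57 to 0.58), and not every library correlated best with its own number, so the numbers were not read as pairs; fits that blocked on the replicate number called 18 and 17 cytosolic and 8 and 7 mitochondrial genes higher in wildtype and KO mice, 0 and 1 mitochondrial genes lower, 1 gene KO against wildtype after LPS, and no call changed. With 4 or 5 mice a group, the standard errors of KO against wildtype set how small a difference could be detected.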
